A study of Schizosaccharomyces pombe with 5 samples.

Results

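MBF is the transcription factor that switches on the genes of the G1 to S phase transition in the fission yeast Schizosaccharomyces pombe, and 10 genes under its control were examined here. They were chosen by symbol: cdc18, cdt1, cdt2, cdc22, cig2, mik1, nrm1, yox1, ssb1 and mrc1. Probes for 9 of the 10 were found in the platform annotation, and all 9 were among the 4907 genes with a value on all 5 arrays. No probe carried the symbol or the locus tag of yox1, so yox1 was not analysed here.

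RNA was measured on 5 spotted oligonucleotide arrays read in 2 colours, with 2 oligonucleotides per gene. Per the labels, the tra1-1 mutant was labelled with Cy5 on 3 arrays and the wild type with Cy5 on 2 arrays, while Cy3 carried the wild type on all 5. The 2 wild-type-labelled arrays are thus self-self hybridisations by their label. All cells grew at 30 degrees, and no dye swap is labelled. The labels give neither the rest of the genotype nor the change that tra1-1 makes in tra1, the gene for the TRRAP-like scaffold of the SAGA complex. The labels call the experiments independent without naming separate cultures, so p-values measure only the spread between these arrays, which may be technical. Values are read as log2 ratios, Cy5 over Cy3, after setting the median of each array to 0. That direction is likely from the labels but is not stated with the values, and all signs would turn if the ratio ran the other way.

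MBF is built from Cdc10 and the DNA-binding proteins Res1 and Res2, and it acts on promoters that hold MluI cell cycle boxes. Its targets encode proteins that license and fire replication origins, make nucleotides and guard replication forks. Nrm1 and Yox1 are themselves MBF targets and bind back to MBF as repressors once S phase has begun, and the replication checkpoint kinase Cds1 relieves that repression when forks stall. In bulk RNA, fewer cells in S phase and less transcript per cell cannot be told apart.

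The tra1 ratio was far from 0 on both arrays that are self-self by their label. It was 0.04, 0.02 and -2.21 on the tra1-1-labelled arrays 1, 2 and 3, against -1.41 and -2.04 on the wild-type-labelled arrays 1 and 2. The labels do not say which tra1 ratio to expect in tra1-1 cells. Over the 4907 genes, which are no independent replicates, Pearson's r of the tra1-1-labelled array 3 was 0.47 with each other tra1-1-labelled array, against 0.72 and 0.74 with the wild-type-labelled arrays. The SD of the ratios over genes was 0.26, 0.30 and 0.45 on the tra1-1-labelled arrays and 0.40 and 0.39 on the wild-type-labelled arrays. Whether any array carries a wrong label was not tested. If labels were exchanged, the group differences would not read as mutant against wild type. Groups keep their labels, and results are given with and without the tra1-1-labelled array 3. That array was singled out by these same values. Leaving out an array that resembles the other group tends to widen the group difference, and calls went from 0 to 205 of the 4907 genes. Calls made without it are therefore no independent support.

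The MBF targets as a set were low on the same arrays as tra1. Their median ratio was -0.06, -0.10 and -0.62 on the tra1-1-labelled arrays 1, 2 and 3, against -0.60 and -0.46 on the wild-type-labelled arrays 1 and 2. Among all genes, 2, 2 and 5 of the 9 lay in the lowest 10% on the tra1-1-labelled arrays, and 6 and 6 of 9 on the wild-type-labelled arrays. The lowest of them was cdc22 on the tra1-1-labelled arrays 1 and 2 (-0.40 and -0.43), and mik1 on each remaining array. The 9 genes nonetheless differed from each other: cdc18 and nrm1 stayed near or above the array median on the wild-type-labelled arrays, while mik1 and ssb1 lay far below it.

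**Figure D1:**
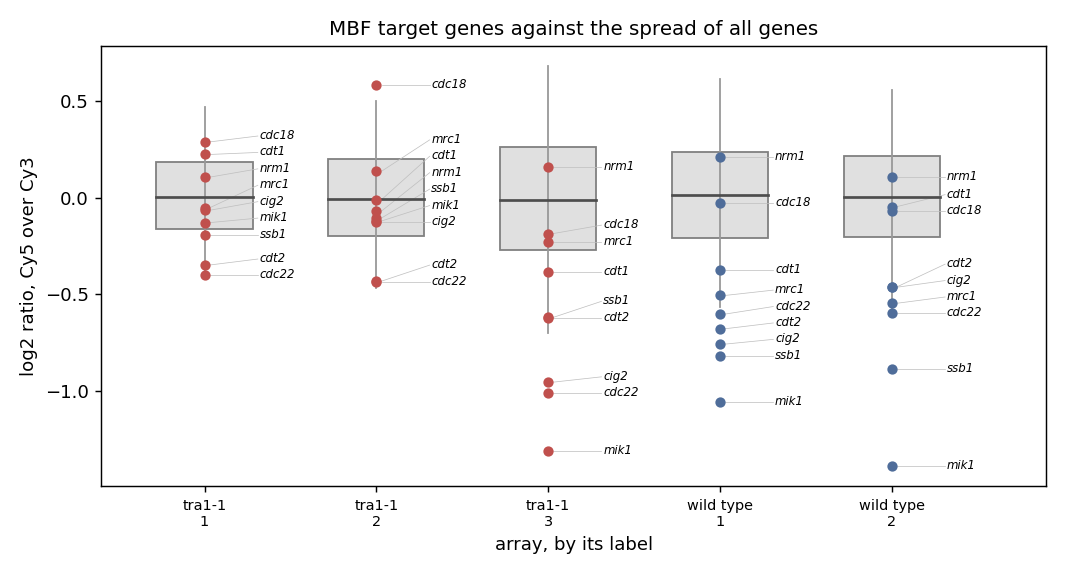
Log2 ratio of Cy5 over Cy3 (vertical axis) of the 9 MBF target genes, as named points, on the 3 arrays labelled tra1-1 (red) and the 2 labelled wild type (blue). Grey boxes span the 25th to 75th percentile of all 4907 genes with the median as a line, and grey whiskers the 5th to 95th percentile; mik1 is the lowest of the 9 at -1.31 on the tra1-1-labelled array 3 and at -1.06 and -1.39 on the wild-type-labelled arrays.

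The first comparison asked which MBF targets differ between the labelled groups. By limma, none of the 9 passed an adjusted p of 0.05, with adjusted p from 0.654 to 0.996. Over all genes 0 of 4907 were called (0%), with 349 (7.11%) at an unadjusted p under 0.05, where 2 of the 9 stood, ssb1 and mrc1. Of the 9, 7 differences were above 0, with a median of 0.23 and a range of -0.09 to 0.70. Of all genes 49.4% were above 0, with a median of -0.0025. The 3 arrays labelled tra1-1 lay above both wild-type-labelled arrays in 2 of the 9, where 11.3% of all genes did so, and below both in 0 of 9 (12% of all genes). Without the tra1-1-labelled array 3, limma called 2 of the 9, mik1 and ssb1, both higher, where 2.47% of all genes were called higher. The other arrays labelled tra1-1 then lay above both wild-type-labelled arrays in 8 of the 9, where 23.6% of all genes did so, and nrm1 was the exception. With the tra1-1-labelled arrays 1 and 2 left out instead, the median difference was -0.09. That setting leaves 1 tra1-1-labelled array, so the spread comes from the wild-type-labelled arrays alone and the test says little.

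**Figure D2:**
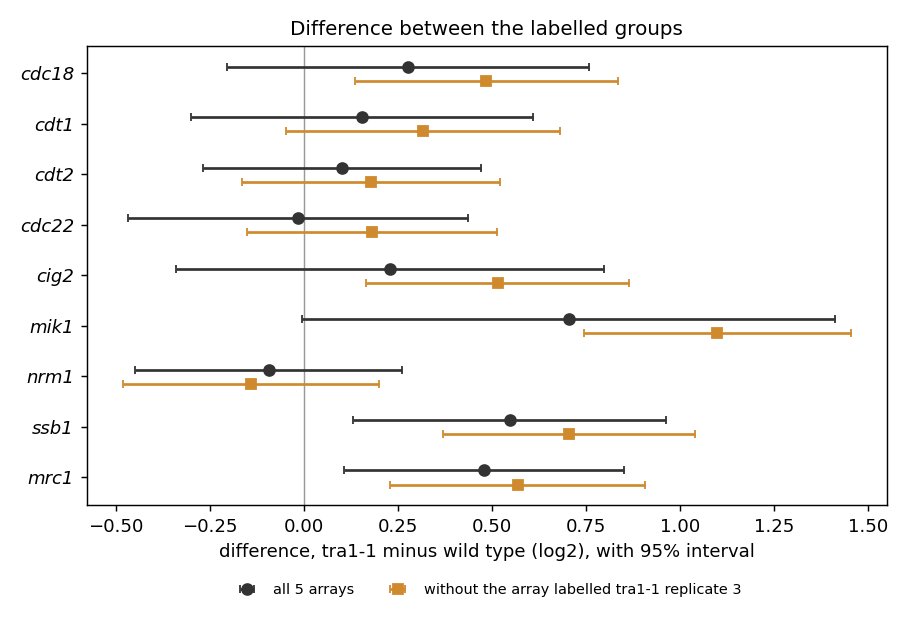
Difference, tra1-1-labelled minus wild-type-labelled arrays, for each gene (horizontal axis, log2, limma estimate with its 95% interval), with all 5 arrays (black circles) and without the tra1-1-labelled array 3 (orange squares). Estimates run from -0.09 for nrm1 to 0.70 for mik1 with all arrays, and from -0.14 to 1.10 without that array.

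Origin licensing begins with Cdc18, a counterpart of Cdc6, which loads the MCM helicase together with Cdt1. cdc18 had ratios of 0.29, 0.59 and -0.18 on the tra1-1-labelled arrays, against -0.03 and -0.07 on the wild-type-labelled arrays. Its groups overlapped, because the tra1-1-labelled array 3 lay below both wild-type-labelled arrays. The difference was 0.28 with a 95% interval of -0.20 to 0.76 (limma adjusted p = 0.811). It was 0.49 without the tra1-1-labelled array 3 (limma adjusted p = 0.119) and 0.10 without the tra1-1-labelled array 2 (limma adjusted p = 0.996). On the tra1-1-labelled array 2, cdc18 ranked 4761 of 4907 from the lowest, the highest place any of the 9 genes reached on any array.

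cdt1 had ratios of 0.23, -0.01 and -0.38 on the tra1-1-labelled arrays, against -0.37 and -0.05 on the wild-type-labelled arrays. Both wild-type-labelled values lay within the range of the tra1-1-labelled ones, and the difference was 0.15 with a 95% interval of -0.30 to 0.61 (limma adjusted p = 0.901). The oligonucleotides of cdt1 disagreed on the level of the ratio. The first read -0.12, -0.56 and -1.18 on the tra1-1-labelled arrays, against -1.04 and -0.37 on the wild-type-labelled arrays. The second was above 0 throughout, with 0.57, 0.54 and 0.42 on the tra1-1-labelled arrays and 0.29 and 0.28 on the wild-type-labelled arrays. Their mean gap of 1.08 lay at percentile 98.7 among 4673 genes, whose median gap was 0.36. By the second oligonucleotide alone every tra1-1-labelled array lay above both others, with a difference of 0.23 ± 0.22 (SE, limma adjusted p = 0.876 over all oligonucleotides).

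cdt2 encodes the adaptor that brings Cdt1 and the ribonucleotide reductase inhibitor Spd1 to a Cul4 ubiquitin ligase. It was below the median on every array, with -0.35, -0.43 and -0.62 on the tra1-1-labelled arrays and -0.68 and -0.46 on the wild-type-labelled arrays. The difference was 0.10 with a 95% interval of -0.27 to 0.47 (limma adjusted p = 0.925), and -0.0058 without the wild-type-labelled array 1. Both group means lay below 0 past the tests described below.

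cdc22, the gene of the large subunit of ribonucleotide reductase, was also below the median on every array. Its ratios were -0.40, -0.43 and -1.01 on the tra1-1-labelled arrays, against -0.60 and -0.60 on the wild-type-labelled arrays. The tra1-1-labelled arrays 1 and 2 lay above the wild-type-labelled arrays and the tra1-1-labelled array 3 below them, and the difference was -0.02 with a 95% interval of -0.47 to 0.44 (limma adjusted p = 0.996). The sign was not settled: the difference was 0.18 without the tra1-1-labelled array 3 and 0.02 with scale normalization, and the oligonucleotides gave 0.18 and -0.21.

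cig2 encodes the cyclin that works with Cdc2 at the start of S phase. Its ratios were -0.06, -0.12 and -0.95 on the tra1-1-labelled arrays, against -0.76 and -0.46 on the wild-type-labelled arrays. The first pair stood above all other values, and the tra1-1-labelled array 3 below them, ranking 92 of 4907 from the lowest. The difference was 0.23 with a 95% interval of -0.34 to 0.80 (limma adjusted p = 0.879). Without the tra1-1-labelled array 3 it was 0.52, which did not pass either (limma adjusted p = 0.0938). It was 0.07 and 0.10 without the tra1-1-labelled arrays 1 and 2, and 0.08 without the wild-type-labelled array 1. Both cig2 oligonucleotides followed this order, with a mean gap of 0.18.

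mik1 had the widest spread of the 9 over the arrays. Mik1 is the kinase that shares with Wee1 the inhibitory tyrosine of Cdc2 and is made in S phase. Its ratios were -0.13, -0.12 and -1.31 on the tra1-1-labelled arrays, against -1.06 and -1.39 on the wild-type-labelled arrays. From the lowest of 4907 genes, mik1 ranked 1465.5, 1690 and 28 on the tra1-1-labelled arrays, and 42 and 23 on the wild-type-labelled arrays. The difference was 0.70 with a 95% interval of -0.0032 to 1.41, a 1.63-fold difference (limma adjusted p = 0.704). Without the tra1-1-labelled array 3 it was 1.10 ± 0.17 (SE, limma adjusted p = 0.000508). The tra1-1-labelled array 3 alone differed by -0.09 from the mean of the wild-type-labelled arrays. The first mik1 oligonucleotide read -0.38, 0.02 and -0.99 on the tra1-1-labelled arrays, against -1.29 and -1.38 on the wild-type-labelled arrays, with no overlap. The second read 0.12, -0.26 and -1.63, against -0.83 and -1.40, and overlapped.

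**Figure D3:**
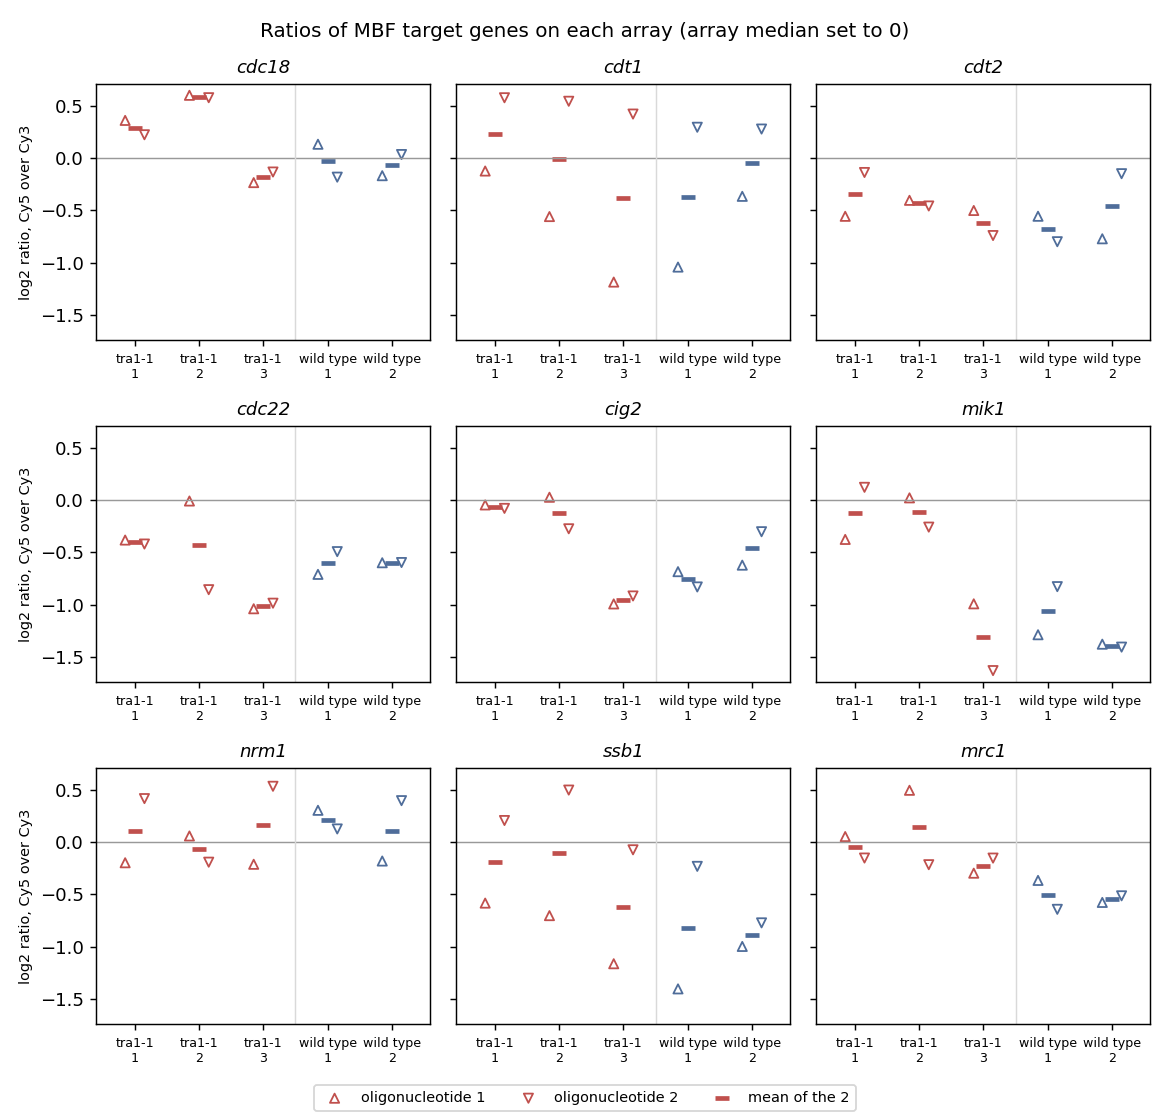
Log2 ratio of Cy5 over Cy3 (vertical axis) of each gene on the 3 arrays labelled tra1-1 (red, left) and the 2 labelled wild type (blue, right). Triangles are single oligonucleotides and bars their mean; mik1 reads -0.13 and -0.12 on the first pair of arrays and -1.06 or lower on the rest, while the cdt1 oligonucleotides lie 1.08 apart on average.

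ssb1 and mrc1 act at the fork and, with their oligonucleotides averaged, were the only members whose groups did not overlap. ssb1 encodes the largest subunit of RPA, the complex that coats single-stranded DNA. Its ratios were -0.19, -0.10 and -0.62 on the tra1-1-labelled arrays, against -0.82 and -0.88 on the wild-type-labelled arrays. The difference was 0.55 ± 0.19 (SE) with a 95% interval of 0.13 to 0.96, or 1.46-fold (limma adjusted p = 0.654). It was 0.70 without the tra1-1-labelled array 3 (limma adjusted p = 0.0135). The ssb1 oligonucleotides were 0.89 apart on average (percentile 96.6), yet both gave a difference above 0, of 0.38 and 0.71. By the first the groups overlapped, because the tra1-1-labelled array 3 lay below the wild-type-labelled array 2. Only by the second did they not overlap.

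mrc1 encodes the Claspin-like mediator that passes the stalled-fork signal to Cds1. Its ratios were -0.05, 0.14 and -0.23 on the tra1-1-labelled arrays, against -0.51 and -0.55 on the wild-type-labelled arrays. The difference was 0.48 ± 0.17 (SE) with a 95% interval of 0.11 to 0.85, or 1.39-fold (limma adjusted p = 0.654). It was 0.57 without the tra1-1-labelled array 3 (limma adjusted p = 0.055). With either oligonucleotide every tra1-1-labelled array lay above both wild-type-labelled arrays, with differences of 0.55 and 0.40. On the tra1-1-labelled array 3, mrc1 stood 0.30 and ssb1 0.23 above the wild-type-labelled mean, whereas the other 7 genes were at or below it, down to -0.41 for cdc22.

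nrm1, the gene of the corepressor that closes MBF transcription after S phase starts, did not share the low values. It had ratios of 0.11, -0.07 and 0.16 on the tra1-1-labelled arrays, against 0.21 and 0.11 on the wild-type-labelled arrays. The difference was -0.09 with a 95% interval of -0.45 to 0.26 (limma adjusted p = 0.928). Ranks of 2034 to 3584 of 4907 placed nrm1 in the middle of all genes on every array.

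The wild-type-labelled arrays were set against 0, the value expected of a self-self array apart from dye and spot effects. Of the 9 genes, 5 were below 0 past limma's test and 0 above it, where 4.99% of all genes were below and 6.4% above. mik1 was lowest at -1.22 ± 0.24 (SD, n = 2, limma adjusted p = 0.0148). ssb1 stood at -0.85 ± 0.05 (SD, n = 2, limma adjusted p = 0.00926), cdc22 at -0.60 (limma adjusted p = 0.037), cdt2 at -0.57 (limma adjusted p = 0.022) and mrc1 at -0.53 (limma adjusted p = 0.0308). cig2 stood as low as cdc22, at -0.61, and did not pass (limma adjusted p = 0.0712). It passed with quantile normalization, with scale normalization and with the values as deposited (limma adjusted p = 0.0304, 0.0277 and 0.00335). With each oligonucleotide apart, both of mik1 passed, 1 each of cdt2, ssb1 and mrc1, and neither of cdc22 (limma adjusted p = 0.0653 and 0.0713). cdt1, cdc18 and nrm1 stood at -0.21, -0.05 and 0.16 and did not pass. Without the tra1-1-labelled array 1, which enters only through the spread, cdc22 and mrc1 were just outside the threshold (limma adjusted p = 0.0501 and 0.0526). Without the tra1-1-labelled array 3, cig2 passed too and 12.8% of all genes were called below 0. With either wild-type-labelled array left out, the lone array was assumed to vary like the tra1-1-labelled arrays, and 0 of 4907 genes were called.

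By their labels, the tra1-1-labelled arrays tested against 0 read mutant over wild type directly, and they keep any dye effect. That reading holds only if the labels are right. Here 2 of the 9 were below 0 past limma's test and 0 above it, where 2.22% of all genes were below and 5.6% above. cdc22 stood at -0.62 ± 0.34 (SD, n = 3, limma adjusted p = 0.0427) and cdt2 at -0.47 ± 0.14 (SD, n = 3, limma adjusted p = 0.0444). Both also passed below 0 on the wild-type-labelled arrays, at -0.60 and -0.57. Neither passed without the tra1-1-labelled array 1 (limma adjusted p = 0.051 for cdc22 and 0.101 for cdt2) or without array 2 (0.0798 and 0.145). Without array 3 both passed and cdc18 passed above 0, at 0.44 (limma adjusted p = 0.00301). In that setting 1100 of all 4907 genes passed, below or above 0, against 384 with all 3 arrays. mik1, at -0.52 ± 0.68 (SD, n = 3), did not pass with these arrays (limma adjusted p = 0.164). Over all 5 arrays, cdt2, cdc22, cig2, mik1 and ssb1 were below the array median every time, 5 of the 9 where 17.1% of all genes were.

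The factor that drives these genes was examined beside them. Of 10 genes of MBF subunits and regulators, 9 were measured, nrm1 among them, and 0 passed limma's test for the difference. Their median difference was -0.09, with 2 above 0 and 7 below. The DNA-binding subunit gene res1 had ratios of 0.19, 0.21 and 0.41 on the tra1-1-labelled arrays, against 0.63 and 0.50 on the wild-type-labelled arrays. That is a difference of -0.30 ± 0.16 (SE, limma adjusted p = 0.747), with no overlap. res2, which encodes the other DNA-binding subunit, had -0.02, -0.01 and 0.15 on the tra1-1-labelled arrays, against 0.29 and 0.17 on the wild-type-labelled arrays, also with no overlap. The subunit gene cdc10 differed by -0.06 and overlapped. On the wild-type-labelled arrays 2 of the 9 regulator genes, res1 and cds1, were above 0 past the test, where 6.4% of all genes were. cds1 passed above 0 on the tra1-1-labelled arrays too, at 0.51 (limma adjusted p = 0.0341). It was 1 of the 9 to do so, where 5.6% of all genes did.

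Among these regulators, pas1 stood on the other side. It encodes a cyclin reported to promote MBF activity, and it had ratios of 0.33, 0.17 and -0.31 on the tra1-1-labelled arrays, against -0.70 and -0.34 on the wild-type-labelled arrays. The groups did not overlap, which made 1 of the 9 regulator genes higher and 2 lower (11.3% and 12% of all genes). The difference was 0.59 ± 0.21 (SE, limma adjusted p = 0.685). Without the tra1-1-labelled array 3 it was 0.77 (limma adjusted p = 0.0127). The coactivator gene rep2 differed by 0.23, and rep1, chk1 and cds1 by -0.30, -0.13 and -0.02.

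Further genes often listed with MBF targets were read beside the 9. Of 11 such genes 10 were measured, rep2 being also among the regulators. All 10 differences were above 0 (7 of the 9, and 49.4% of all genes), with a median of 0.21 and a range of 0.03 to 0.42. The list's median ratio was -0.035, -0.18 and -0.38 on the tra1-1-labelled arrays, against -0.34 and -0.41 on the wild-type-labelled arrays. On the tra1-1-labelled array 3, rad21, pol1, rep2, suc22, tos4 and dut1 lay below the wild-type-labelled mean, and the rest above it. None of the 10 passed limma's test, and 1 of 10 had tra1-1-labelled arrays all above the wild-type-labelled ones, a share near the 11.3% of all genes. That gene was psm3, which encodes a cohesin subunit, with 0.38, 0.54 and 0.19 on the tra1-1-labelled arrays, against 0.15 and -0.26 on the wild-type-labelled arrays. rad21, the gene of another cohesin subunit, read -0.26, -0.28 and -0.80 on the tra1-1-labelled arrays, against -0.97 and -0.58 on the wild-type-labelled arrays, a difference of 0.33. Below 0 past the test on the wild-type-labelled arrays were 3 of 10, where 4.99% of all genes were: rad21, the mismatch repair gene msh6 and the dUTPase gene dut1. Differences of the ribonucleotide reductase gene suc22, the DNA polymerase genes pol1 and cdc20, dut1, msh6, tos4 and the end-resection gene ctp1 ran from 0.03 to 0.27.

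**Figure D4:**
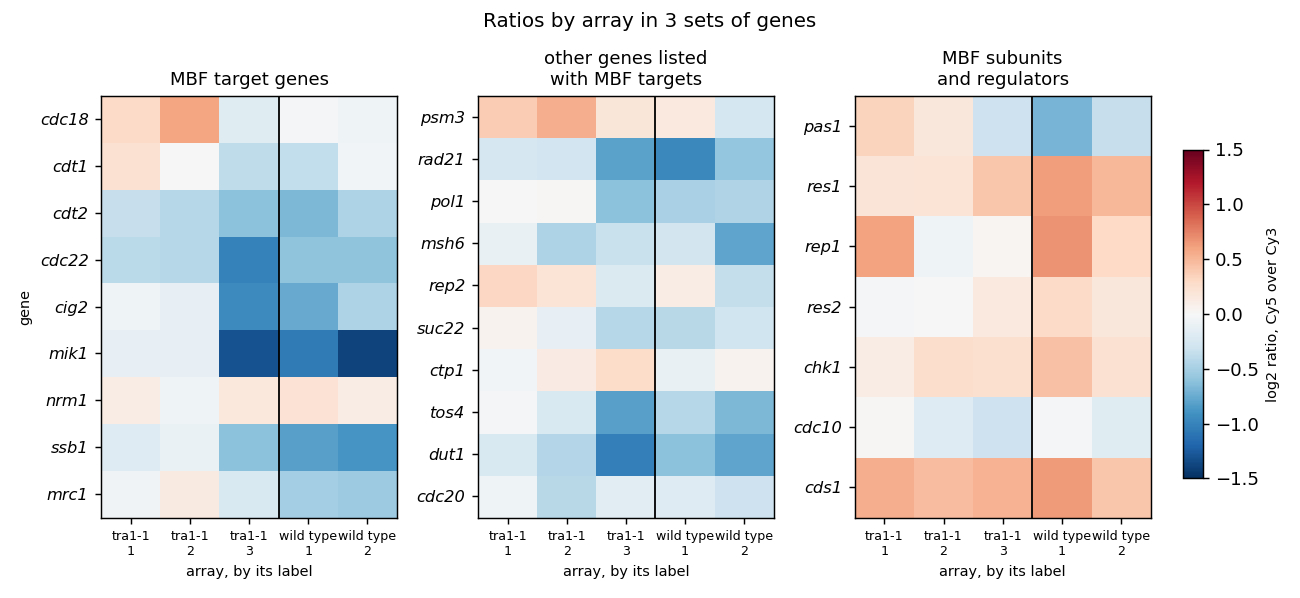
Log2 ratio of Cy5 over Cy3 as colour (blue below 0, red above) for the 9 MBF target genes, 10 other genes listed with MBF targets and 7 genes of MBF subunits and regulators (nrm1 and rep2 are drawn once, in the other sets). Columns are arrays by label, tra1-1 left of the line. Among the subunits and regulators res1, cds1 and chk1 are above 0 on all 5 arrays, and mik1 is among several genes below 0 on all 5.

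The partners of these genes in replication came next. The list of origin licensing and firing, with the MCM and ORC genes that act beside Cdc18 and Cdt1, had 18 measured genes, 2 above 0 and 16 below, and a median difference of -0.16. None passed the test. Its groups did not overlap in 6 genes, 1 higher and 5 lower, where 11.3% of all genes were higher and 12% lower. mcm2, a subunit of the replicative helicase, had -0.13, -0.07 and -0.20 on the tra1-1-labelled arrays, against 0.26 and 0.16 on the wild-type-labelled arrays. orc4, orc5 and drc1 differed by -0.36, -0.32 and -0.32.

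Partners of Cdc22 and Cdt2 had a median difference of 0.10 over 8 measured genes. Those with the smallest p were the COP9 signalosome genes csn5 (0.26), csn2 (0.28) and csn1 (-0.21) and the ligase gene ddb1 (0.19). Partners of Ssb1 and Mrc1 at the fork and in the checkpoint had a median of 0.03 over 11, with rad17 at -0.30 and swi3 at 0.29. G1 cyclins, Cdc2 and their inhibitors had a median of 0.01 over 7, with cdc2 at 0.19 and the F-box genes pop2 and pop1 at -0.13 and 0.12. No member of these 3 lists passed limma's test, with all arrays or without the tra1-1-labelled array 3.

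Genes of M mating type were read as markers of M cells. All 5 measured had a difference below 0, with a median of -0.57, and 0 passed the test. With the tra1-1-labelled array 3 left out, mam2, mam1 and mfm2 were called lower, 3 of the 5 where 1.71% of all genes were. The median ratio of the 5 was -0.10, -0.37 and 0.50 on the tra1-1-labelled arrays, against 0.67 and 0.63 on the wild-type-labelled arrays. mfm1 was low on the tra1-1-labelled array 3 too, with -0.27, against 0.52 and -0.22 on the wild-type-labelled arrays. Differences of the P cell genes map1, map2 and map3 were 0.28, 0.19 and -0.31, none past the test. Whether the mating type of the strains or the state of the cultures has a part in the values of the MBF targets was not tested.

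The profile of the 9 over the arrays was set against every other named gene. Their mean ratio was -0.06, -0.06 and -0.57 on the tra1-1-labelled arrays, against -0.51 and -0.48 on the wild-type-labelled arrays. Likeness was the root-mean-square distance from this profile over the 5 arrays. Of 4786 named genes outside the set the nearest was pol1, the catalytic subunit gene of DNA polymerase alpha and one of the further listed MBF targets, at 0.05. Next came cdc15, which encodes a scaffold of the cytokinetic ring, eki1, SPOM_SPBC1773.04 and the hexokinase gene hxk2, at 0.05, 0.06, 0.08 and 0.08. The profile is not rare, since 846 of these 4786 genes lay within 0.29, the median distance of a member from the mean of the other members. Within the set mrc1 and cig2 lay closest to the others (0.20 and 0.23), and mik1 and nrm1 farthest (0.65 and 0.60).

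Gene order added a relation that the choice of genes did not use. In the reference assembly ASM294v3, mik1 and ssb1 are direct neighbours whose annotated spans overlap by 1 base, and their locus tags, SPOM_SPBC660.14 and SPOM_SPBC660.13C, place them on opposite strands, so they are transcribed away from each other. These were the 2 genes of the 9 called without the tra1-1-labelled array 3. The genes on their far sides were looked at after these values were known. msi2, beside mik1, had -0.25, -0.47 and -0.95 on the tra1-1-labelled arrays, against -0.97 and -0.67 on the wild-type-labelled arrays. egt2, beside ssb1, had -0.27, 0.06 and 0.00 on the tra1-1-labelled arrays, against -0.48 and -0.38 on the wild-type-labelled arrays. Their differences were 0.26 ± 0.22 and 0.36 ± 0.17 (SE), neither past the test. msi2 was below 0 past the test on the wild-type-labelled arrays (limma adjusted p = 0.0152), and the groups of egt2 did not overlap. Over all 15 measured neighbours of the 9 genes the median difference was 0.02, with 8 above 0. These 15 include msi2 and egt2. Of the 15, 1 was below 0 past the test on the wild-type-labelled arrays, msi2 itself (4.99% of all genes). Without overlap, 2 were higher, egt2 and spt6, and 1 lower (11.3% and 12% of all genes). The difference of spt6, which lies beside mrc1, was 0.45 ± 0.17 (SE, limma adjusted p = 0.685), larger than those of msi2 and egt2. Besides mik1 and ssb1, the annotated spans of nrm1 and tad1, of cig2 and pmc1, and of cdt2 and SPOM_SPAC17H9.18C overlap in that assembly, and the oligonucleotides were not checked to tell these 4 pairs apart.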

How the data were processed

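The authors deposited 1 log ratio per probe and array for 9858 probes, which was read as log2 (Cy5 over Cy3). Not given in the sources used here: scanner, log base, numerator and any correction made before deposit. Column medians as deposited ran from -0.43 to -0.21, and each column's median was subtracted. The platform annotation named the probes (9632 with 1 symbol, 44 with several, 182 not listed). The 2 oligonucleotides of a gene were averaged, or 1 used where the other had no value. The number of arrays limits the precision, and the median standard error of a difference was 0.18.

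The group difference and the wild-type-labelled arrays against 0 came from 1 linear model over all 5 arrays, and the tra1-1-labelled arrays against 0 from a model of those 3 (limma 3.58.1, lmFit then eBayes, run under R 4.3.3). Tests were 2-sided, and p-values were adjusted over all genes by Benjamini and Hochberg's method at 0.05. On simulated data for 4907 genes, the group difference recovered 12% of 50 genes changed by 0.5, 66% of those changed by 1 and 98% of those changed by 2, with 2 false calls among 140. The simulated noise was normal and independent between genes and arrays. These shares may not hold for the real arrays, where the tra1-1-labelled array 3 was closer to the other group. The members and lists were chosen with earlier results of these data known. All members were named, with up to 4 genes of a list by smallest p, every gene of the first 2 lists, and the 5 genes nearest in profile. Promoter motifs, which need sequence, were not analysed here. The closing section gives the alternatives. Figures used matplotlib 3.10.9.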

Additional observations from a re-analysis of the deposited data

How the results depend on the processing

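Whether the replicate numbers pair the arrays could not be decided. Deviations of same-numbered arrays from their group means correlated with r = 0.04 and -0.03 over genes. The deviations of the 2 wild-type-labelled arrays mirror each other, so this check has little power to show a pairing. The replicate block takes the tra1-1-labelled array 3 out of the group difference, because no wild-type-labelled array shares its number. With it, limma called 329 of the 4907 genes, higher or lower, and 3 of the 9 MBF targets (mik1, ssb1 and mrc1). The median difference of the MBF targets was 0.49, with cdc22 at 0.18. Few residual degrees of freedom remain in that model, so its calls rest largely on the variance that limma shares across genes.

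Leaving out each array in turn, the group difference had 0 to 205 genes called, 0 to 2 of the 9, and medians of 0.071 to 0.49. Differences of cdt1, cdt2 and cdc22 ran from -0.011 to 0.32, -0.0058 to 0.21 and -0.12 to 0.18. The sign turned for cdt1 and cdt2 without the wild-type-labelled array 1 and for cdc22 without the tra1-1-labelled array 3. The wild-type-labelled ratio had 0 to 1367 genes and 0 to 6 of the 9. The tra1-1-labelled ratio had 65 to 1100 genes and 0 to 3 of the 9, with cdt1 from -0.20 to 0.11 and mrc1 from -0.14 to 0.044, both above 0 without array 3. The stress on results without the tra1-1-labelled array 3 came after seeing the data. Some settings were also chosen then: leaving a wild-type-labelled array out of the test against 0, and leaving out the tra1-1-labelled arrays 1 and 2 together. The last gave 1 gene and a median of -0.086, with cdc18, cdt1, cdt2, cig2 and mik1 at -0.14, -0.17, -0.052, -0.34 and -0.086.

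With the values as deposited, 2613 genes and 7 of the 9 passed on the tra1-1-labelled arrays, where cdc18 and nrm1 turned to -0.13 and -0.29. On the wild-type-labelled arrays 1561 genes passed and nrm1 turned to -0.15. The median of all genes lies below 0 in that setting. Quantile normalization gave 629 genes on the tra1-1-labelled arrays. Scale normalization gave 2 genes for the difference (cdc22 at 0.017), 672 on the tra1-1-labelled arrays and 856 on the wild-type-labelled arrays. With each oligonucleotide apart, 1188 oligonucleotides passed on the tra1-1-labelled arrays, 4 of them from MBF targets, and 1040 on the wild-type-labelled arrays. Single oligonucleotides then turned sign for cdc22 in the difference (0.18), for cdt1 (0.51, limma adjusted p = 0.0406), nrm1 (-0.12), ssb1 (0.21) and mrc1 (0.082) on the tra1-1-labelled arrays, and for cdt1 on the wild-type-labelled arrays (0.28). With a robust prior mik1 no longer passed on the wild-type-labelled arrays (limma adjusted p = 0.0548). Where no reason is given, the cause was not tested.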
